A study of Caenorhabditis elegans with 9 samples.

Results

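The proteasome subunit genes of Caenorhabditis elegans were followed through RNA recovered by anti-GFP immunoprecipitation from dauer larvae. Members were taken by name: protein-coding genes whose symbol starts with pas-, pbs-, rpt- or rpn-. This gave 33 of 46904 listed genes, and all 33 were present in each of the 3 deposited tables. The core particle was represented by 14 genes, 7 of the alpha ring (pas) and 7 of the beta ring (pbs). The regulatory particle was represented by 19 genes, 6 of the ATPase ring (rpt) and 13 non-ATPase subunits (rpn).

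The proteasome is the large protease that degrades ubiquitin-tagged proteins in the cytosol and nucleus. Alpha and beta rings stack into the hollow core particle, whose proteolytic sites lie inside on beta subunits, while the regulatory particle binds ubiquitin chains, removes them, unfolds the substrate and threads it into the core. Subunits are needed in fixed proportions, and their genes are known in many species to be controlled together, in worms through the transcription factor SKN-1. In C. elegans, the lid subunit RPN-6.1 is known from long-lived germline-less mutants to limit proteasome activity.

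The bait was HZL-1 fused to GFP, and the study asked which transcripts it recovers and how this depends on AMP-activated protein kinase, the cellular energy sensor. Every strain carried a mutant allele of the insulin/IGF receptor gene daf-2, and hermaphrodites were collected as dauers on day 2 of arrest, after 96 hours at 25 °C from synchronized cultures, and fixed with formaldehyde. Libraries called aak(0) carried that mutation as well, a name used in worms for loss of both genes for the kinase's catalytic subunits (aak-1, aak-2), whereas those called daf-2 list no such mutation. The labels give no allele numbers. The HZL-1 animals were mutant for hzl-1 and carried the tagged copy on an extrachromosomal array, a kind of transgene that worms can lose from some cells. The intestinal set placed the tagged copy under the promoter of nhx-2, an intestinal ion exchanger gene, with 3 libraries in aak(0) and 3 in daf-2. A control of GFP alone under the same promoter gave 1 library labelled aak(0), whose label lists no hzl-1 mutation. The endogenous set used the promoter of hzl-1 itself, with 1 library per genotype. Since input RNA is not analysed here, each level combines the abundance of a transcript with its recovery. In whole animals, fewer cells of a type and less RNA per cell cannot be told apart.

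Levels of the intestinal set are given as FPKM, fragment numbers scaled to transcript length and library size, which allow comparison between genes. Reads behind these values could be recovered for the 6 HZL-1 libraries and totalled 7151604 to 17397251 per library, while for GFP alone no depth is known. A floor of 3 reads was worth 0.172 to 0.419 CPM (reads relative to the gene reads of their library) in these, and covers counting error only, since reads are not independent molecules. The libraries aak(0) replicate 1, daf-2 replicate 1 and daf-2 replicate 3 stood apart: 65.9%, 51.0% and 45.1% of the 9649 tested genes were listed at 0 FPKM in them, against 4.43% to 15.7% in the other 4. The kinase gene aak-2 was at 0, 2.11 and 3.36 FPKM in the aak(0) libraries, 6.13, 5.31 and 7.90 in daf-2 and 8.32 in the library labelled GFP aak(0), which goes against that label. In the endogenous set aak-2 had 92248 reads (3838 CPM) in the library labelled aak(0) and 3937 reads (67.7 CPM) in the library labelled daf-2. Reads of hzl-1 (listed as C44H9.4) numbered 11527 and 0 in these libraries, so both endogenous libraries went against their labels, and each is named below by its label alone. The other catalytic gene, aak-1, overlapped between genotypes, at 0, 2.19 and 2.66 FPKM in the aak(0) libraries, 0, 2.85 and 6.41 in daf-2 and 4.43 in GFP. In the endogenous set aak-1 was at 26.5 CPM in the library labelled aak(0) and 19.8 CPM in the one labelled daf-2. All these values cover the whole gene, so transcript left by a partial deletion would count too. Dauer markers were present, 5 to 8 of 8 above 0 in 6 of the 7 intestinal libraries and 3 of 8 in daf-2 replicate 1. Intestine markers were above 0 for 3 to 10 of 10, with sums of 22.9 to 51.1 FPKM. Markers of other tissues were detected too. Those of body wall muscle were above 0 for 5 to 6 of 6 (34.7 to 272 FPKM) and those of neurons for 6 to 8 of 8 (95.7 to 258 FPKM).

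All 33 members were detected in the well-covered intestinal libraries, and they lay close to each other. In aak(0) replicate 2 they ranged from 1.92 to 26.9 FPKM around a median of 14.2, and in aak(0) replicate 3 from 3.92 to 34.2 around 13.5. The GFP library gave 5.23 to 32.97 FPKM around a median of 16.4. In daf-2 replicate 2, where all members were again above 0, they ranged from 0.25 to 14.4 FPKM around 4.19. The SD of the log2 levels among members was 0.74, 0.69, 0.72 and 0.95 in these 4 libraries, so most subunits stayed within a few-fold of each other. Median levels over the tested genes were 4.27, 4.18, 5.65 and 1.61 FPKM, below the median of the members in each of the 4.

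**Figure D1:**
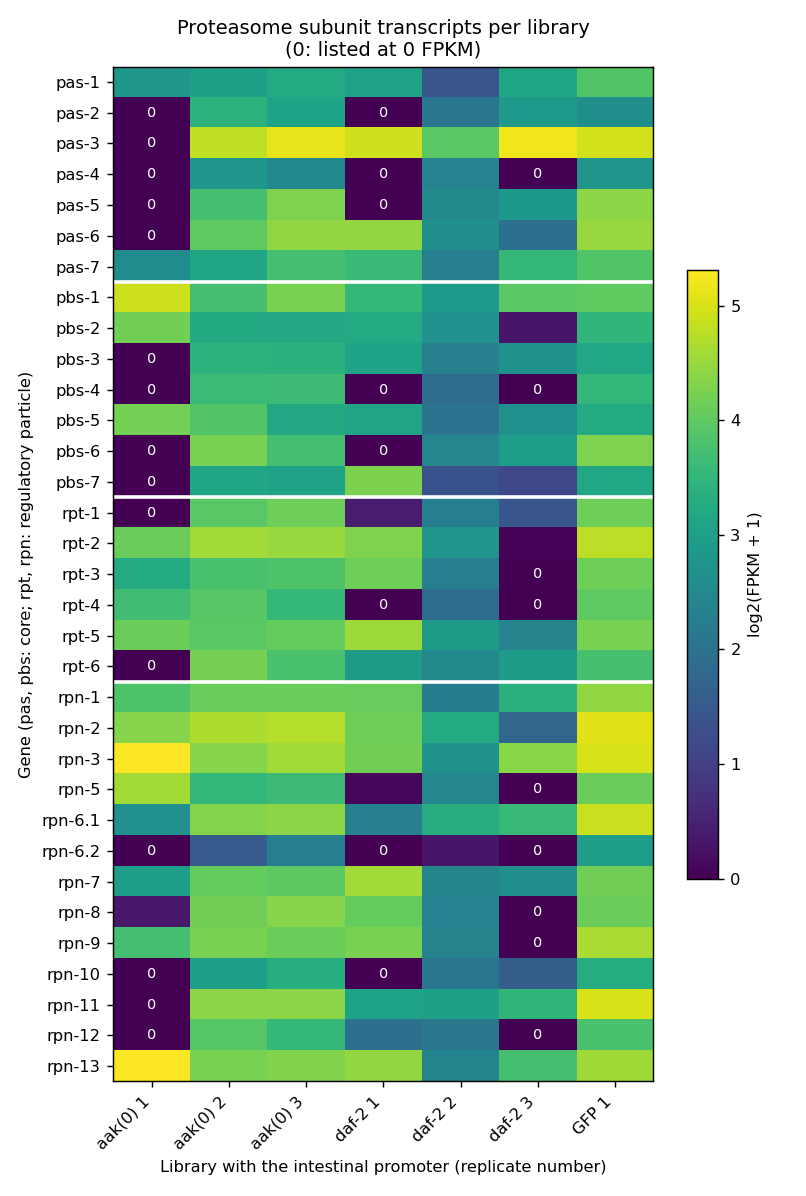
Level of each member on the log2(FPKM + 1) scale (colour) in the 7 libraries with the intestinal promoter (columns), with white lines between the pas, pbs, rpt and rpn families. Cells marked 0 were listed at 0 FPKM, and all of them lie in aak(0) replicate 1 (15 members), daf-2 replicate 1 (8) and daf-2 replicate 3 (9).

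The regulatory particle was recovered at higher levels per gene than the core in most libraries. Its median was 16.1 FPKM in aak(0) replicates 2 and 3, against 10.6 and 10.5 FPKM for the core. With GFP alone the medians were 17 and 12.04 FPKM, and in daf-2 replicate 2 they were 4.31 and 4.05 FPKM. The order was turned in daf-2 replicate 3, with a median of 1.96 FPKM for the regulatory and 5.82 FPKM for the core particle, where 7 regulatory and 2 core genes were listed at 0. Members of 1 particle share libraries and are not replicates, so these medians carry no test.

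Transcripts of the alpha ring, whose subunits form the gate of the core, were led by pas-3 (WBGene00003924, WBcel235 chromosome I, 5105110 to 5106204). Its level was 0, 26.9 and 34.2 FPKM in aak(0) replicates 1 to 3, 29.5, 14.4 and 35.5 in the daf-2 libraries, and GFP alone gave 30.1. Among the alpha subunits pas-3 was thus high in every library but aak(0) replicate 1, and the genotypes overlapped. Next came pas-6 at 0, 15.04 and 20.69 FPKM in the aak(0) libraries, 21.04, 5.29 and 2.91 in the daf-2 libraries, and GFP alone gave 21.6. The lowest alpha subunit, pas-4, was at 0, 5.93 and 4.58 FPKM in the aak(0) libraries, at 0, 4.11 and 0 in the daf-2 libraries, and GFP alone gave 5.86. The genotypes overlapped for both.

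In the beta ring the highest mean level belonged to pbs-1, a subunit gene of the core's inner ring, at 29.0, 12.4 and 17.9 FPKM in the aak(0) libraries, 10.6, 6.29 and 14.5 in the daf-2 libraries, and GFP alone gave 15.1. The gene pbs-5, counterpart of the subunit with chymotrypsin-like activity in other species, was at 17.5, 13.6 and 8.22 FPKM in the aak(0) libraries, 7.60, 3.04 and 5.33 in the daf-2 libraries, and GFP alone gave 8.48. Each aak(0) library thus lay above each daf-2 library for pbs-5, by a narrow margin in replicate 3, whereas GFP was level with the lowest aak(0) library. The lowest beta gene, pbs-4, was at 0, 11.3 and 11.5 FPKM in the aak(0) libraries, at 0, 2.71 and 0 in the daf-2 libraries, and GFP alone gave 10.5.

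The ATPase ring unfolds substrates. Its gene with the highest mean was rpt-2, at 16.23, 23.01 and 21.4 FPKM in the aak(0) libraries, 18.6, 5.86 and 0.03 in the daf-2 libraries, and GFP alone gave 26.4. It was followed by rpt-5 at 16.5, 14.5 and 15.6 FPKM in the aak(0) libraries, 22.3, 6.48 and 4.21 in the daf-2 libraries, and GFP alone gave 17.9. Both were steady over the aak(0) libraries, with SDs of 3.54 and 1.01 FPKM (n = 3), and spread widely over daf-2, with SDs of 9.50 and 9.85 (n = 3). The lowest ATPase gene, rpt-1, was at 0, 14.5 and 16.7 FPKM in the aak(0) libraries, 0.34, 3.81 and 1.67 in the daf-2 libraries, and GFP alone gave 16.6. The genotypes overlapped for all 3.

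Among the non-ATPase subunits the lid gene rpn-3 was highest, at 38.4, 19.4 and 22.9 FPKM in the aak(0) libraries, 16.8, 5.59 and 19.6 in the daf-2 libraries, and GFP alone gave 30.6. The ubiquitin receptor gene rpn-13 was at 38.8, 18.0 and 18.7 FPKM in the aak(0) libraries, 20.9, 4.31 and 12.5 in the daf-2 libraries, and GFP alone gave 22.4. For both, the highest library was aak(0) replicate 1, although that library listed 15 other members at 0. Another ubiquitin receptor gene, rpn-10, reached 0, 6.72 and 9.01 FPKM in the aak(0) libraries, 0, 3.23 and 1.96 in the daf-2 libraries, and GFP alone gave 8.75. The lid deubiquitinase gene rpn-11 was at 0, 19.9 and 20.1 FPKM in the aak(0) libraries, 7.42, 6.97 and 10.1 in the daf-2 libraries, and GFP alone gave 31.1. The genotypes overlapped for all 4.

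The paralogs rpn-6.1 and rpn-6.2 differed. The lid gene rpn-6.1 (WBGene00004462, chromosome III, 6959110 to 6962027) was at 5.44, 18.98 and 20.1 FPKM in the aak(0) libraries, 4.00, 8.90 and 11.2 in the daf-2 libraries, and GFP alone gave 28.6. Its paralog rpn-6.2 (WBGene00010309, chromosome III, 8999828 to 9001973) had the lowest mean level of all members, at 0, 1.92 and 3.92 FPKM in the aak(0) libraries, 0, 0.25 and 0 in the daf-2 libraries, and GFP alone gave 6.73. Beside rpn-6.2 stood spe-11, a sperm gene, which was at 0, 3.10 and 3.11 FPKM in the aak(0) libraries, 0 in each daf-2 library and 6.25 with GFP. Of the 6 sperm markers examined, 0, 5 and 6 were above 0 in aak(0) replicates 1 to 3, 1, 2 and 0 in daf-2 replicates 1 to 3, and 4 in GFP. Their summed level was 0, 36.5 and 27.5 FPKM in the aak(0) libraries, 40.6, 1.44 and 0 in the daf-2 libraries, and 27.4 in GFP. The highest sum thus lay in daf-2 replicate 1, where rpn-6.2 and spe-11 were at 0. The part of sperm RNA in the rpn-6.2 level was not tested.

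The recovered reads showed that members were mostly either absent or well covered in the libraries that stood apart. In aak(0) replicate 1, 15 members had 0 reads, 17 had 43 to 653 reads, and rpn-8 had 3. The gene pas-3, with 523 and 704 reads in aak(0) replicates 2 and 3, had 0 reads there. In daf-2 replicate 1, 7 members had 0 reads, 24 had 45 to 1001, and rpn-5 and pas-5 had 2 and 3. In daf-2 replicate 3, 8 members had 0 reads, 21 had 64 to 857, and rpt-2, pbs-2, rpn-8 and pbs-7 had 1, 6, 21 and 29. By contrast the lowest member had 63 reads in aak(0) replicate 2 and 101 in aak(0) replicate 3, and rpn-6.2 with 9 reads was the lowest in daf-2 replicate 2. An FPKM of 0 stood beside reads for pas-5 in daf-2 replicate 1 (3 reads) and for rpn-8 in daf-2 replicate 3 (21 reads).

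**Figure D2:**
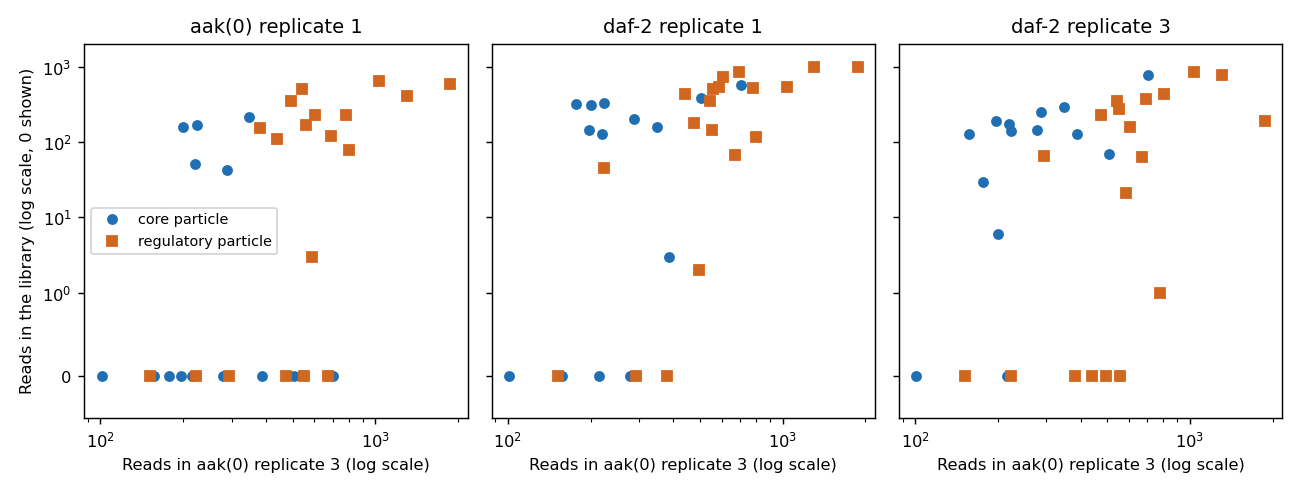
Reads per member in the 3 libraries with most zeros (vertical axes, log scale with 0 shown) against reads in aak(0) replicate 3 (horizontal axes, log scale), with circles for core and squares for regulatory particle genes. Points split into a row at 0 and a cloud above 40 reads, with 1, 2 and 4 members in between in aak(0) replicate 1, daf-2 replicate 1 and daf-2 replicate 3.

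Which members dropped out differed between these libraries. Core genes were at 0 FPKM for 9 of 14 in aak(0) replicate 1, 5 of 14 in daf-2 replicate 1 and 2 of 14 in daf-2 replicate 3, and regulatory genes for 6, 3 and 7 of 19. Core genes also had fewer reads where all were detected, with a median of 222 reads in aak(0) replicate 3 against 558 for regulatory genes. In that replicate, members at 0 in aak(0) replicate 1 had a median of 278 reads (101 to 704) and the others 550 (200 to 1874). Those at 0 in daf-2 replicate 3 had a median of 380 and the others 490. The core genes pas-4 and pbs-4 and the lid paralog rpn-6.2 were at 0 in all 3 libraries, 6 members in 2 of them, 11 in 1 and 13 in none. Over members, log2 levels of aak(0) replicates 2 and 3 correlated at Pearson r = 0.87, those of aak(0) replicate 3 and GFP at 0.91, and those of aak(0) replicate 1 with the other libraries at 0.09 to 0.43. Over all tested genes the same correlations were 0.86, 0.80 and 0.31 to 0.54. Those over members are descriptions over 33 genes of shared libraries. The libraries also differed in how many genes they detected, as given above.

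Summed over all members, levels were 286, 463 and 481 FPKM in the aak(0) libraries, 327, 154 and 188 in the daf-2 libraries, and GFP alone gave 563. The lowest aak(0) sum thus lay below the highest daf-2 sum, and GFP was above all HZL-1 libraries. The regulatory sums did not overlap, at 211, 297 and 299 FPKM in aak(0) against 206, 89.3 and 84.8, whereas the core sums did, at 74.8, 166 and 181 against 121, 64.8 and 103. As a share of the FPKM of protein-coding genes the members took 0.381%, 0.537% and 0.559% in the aak(0) libraries, 0.715%, 0.358% and 0.285% in the daf-2 libraries, and 0.537% in GFP. On this scale daf-2 replicate 1 was highest, the genotypes overlapped, and GFP equalled aak(0) replicate 2. Sums of the germline markers, which are 10 genes such as glh-1 and gld-1, were 90.7, 324 and 334 FPKM in the aak(0) libraries, 232, 53.5 and 68.0 in the daf-2 libraries, and GFP alone gave 511. They placed all 7 libraries in the same order as the proteasome sums did, whereas the other 7 marker lists shared the rank of 0 to 2 libraries with them. A near match was not particular to germline markers. The deubiquitinases treated below summed to 51.1, 133 and 131 FPKM in the aak(0) libraries. Their sums were 92.7, 38.7 and 50.5 in the daf-2 libraries and 167 with GFP. This order differed only by an exchange of aak(0) replicates 2 and 3. None of the 7 lists of degradation genes kept the full order, and E2 enzymes were higher in daf-2 replicate 3 (396 FPKM) than in any aak(0) library. Of the 10 germline markers 8, 10 and 10 were above 0 in aak(0), 9, 10 and 9 in the daf-2 libraries and 10 in GFP, with puf-5 and him-3 at 0 in aak(0) replicate 1. Their part in the proteasome levels was not tested.

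**Figure D3:**
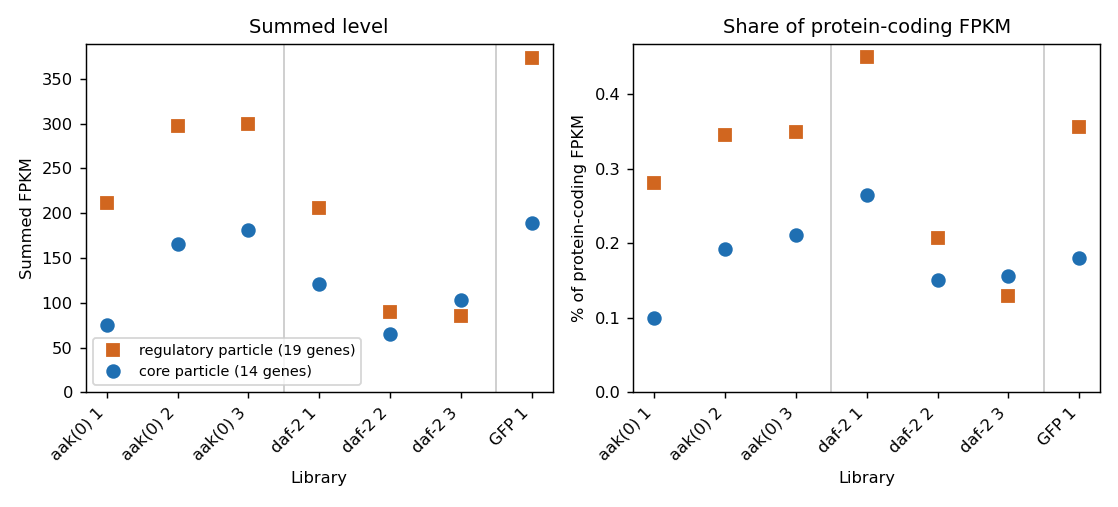
Summed FPKM of the core (circles, 14 genes) and regulatory particle genes (squares, 19 genes) per library on the left, and the same as a percentage of the FPKM of protein-coding genes on the right. On the left GFP is highest for both particles, where aak(0) and daf-2 overlap for the core but not, by a narrow margin, for the regulatory particle. On the right daf-2 replicate 1 is highest and the genotypes overlap for both particles.

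The comparison of genotypes asked whether recovery with intestinal HZL-1 depended on the kinase. Differences of aak(0) from daf-2 ranged from -1.38 to 3.09 on the log2 scale, with a median of 0.88 over members and 0.59 over all tested genes. They were above 0 for 27 of 33 members (81.8%) and for 70.3% of all tested genes. The count varied with the scaling and the test, as did that of all genes. It was 24 members (72.7%, against 49.2% of genes) after quantile normalization, 24 (against 56.9%) with median-of-ratios scaling, and 30 (90.9%, against 70.2%) with a pseudocount of 10 FPKM. On recovered reads, DESeq2 gave 23 members (69.7%, against 71.0%), edgeR under median-of-ratios factors 22 of 32 (68.8%, against 49.3%), and edgeR under TMM factors 27 of 32 (84.4%, against 56.2%). The median over members lay 0.29 above that of all genes. With a single library in place of its group's mean this quantity ran from -0.67 (daf-2 replicate 1) to 0.53, with an SD of 0.39 pooled over both genotypes (n = 3 each), which is larger than the 0.29 itself. The median difference was 0.68 for the core, with 10 of 14 genes above 0, and 1.08 for the regulatory particle, with 17 of 19 above 0.

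With limma on log2(FPKM + 1), 0 of the 33 members passed an adjusted p of 0.05, against 0.0104% of the 9649 tested genes called, and the adjusted p of members lay between 0.717 and 1. All 33 members had passed the minimum mean of 1 FPKM. At an unadjusted p under 0.05 there were 2 members, 6.06% of them by count, where 4.35% of all tested genes met this. The quasi-likelihood test of edgeR on recovered reads called 0 of 32 members with 0 at an unadjusted p under 0.05 (0.0214% and 0.654% of all genes). DESeq2 called 0 of 33, also with 0 at an unadjusted p under 0.05 (0.0218% and 3.33% of all genes). By the authors' deposited table, the adjusted p was under 0.05 for 0 of 33 members, and 9 had an unadjusted p under 0.05, beside 13.3% of all genes. Of these 9 members, 8 were higher in daf-2 by the authors' deposited table, and rpt-4 was the 1 higher in aak(0). All 8 had at most 3 reads in aak(0) replicate 1 and over 40 in daf-2 replicate 1. The library aak(0) replicate 1 weighed heavily on this comparison. Without it limma called 545 of the tested genes, still with 0 members among them, and 8 members (24.2%) had an unadjusted p under 0.05, beside 22.9% of tested genes. All 33 members were then above 0, as were 80.1% of tested genes, and the lowest adjusted p of a member was 0.076.

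**Figure D4:**
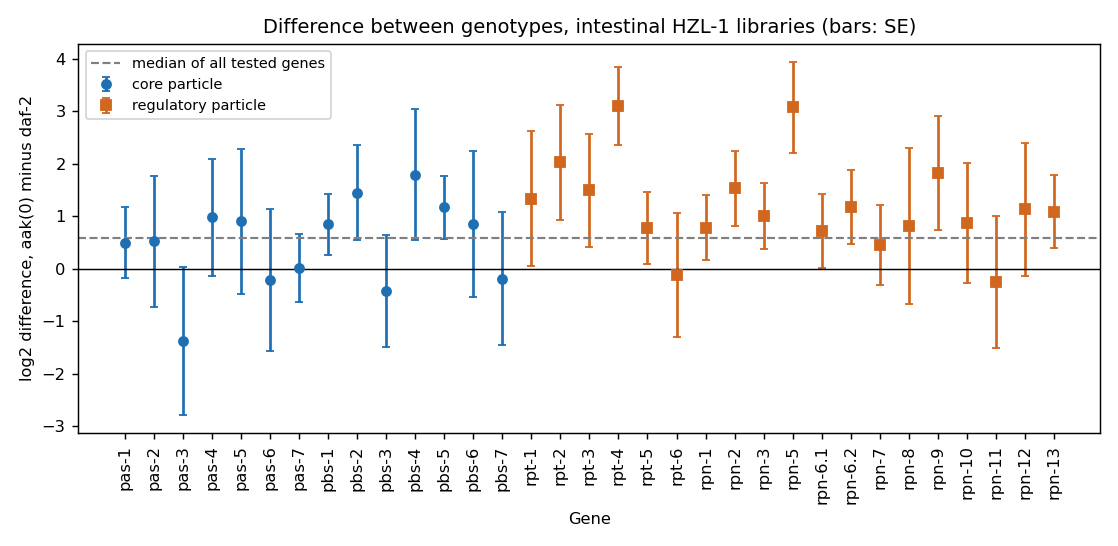
Log2 difference of aak(0) from daf-2 for each member with the intestinal promoter (points, bars for SE from limma, 3 libraries per genotype), with circles for the core and squares for the regulatory particle. The dashed line is the median of all tested genes (0.59), rpt-4 and rpn-5 lie highest at 3.09 and 3.07, and pas-3 lowest at -1.38.

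The members with the highest differences were the ATPase gene rpt-4 and the lid gene rpn-5. Transcripts of rpt-4 (WBGene00004504, chromosome II, 42181 to 46216) were at 11.9, 14.2 and 10.6 FPKM in the aak(0) libraries, at 0, 2.69 and 0 in the daf-2 libraries, and GFP alone gave 14.98. Their reads were 154, 448 and 380 in the aak(0) libraries and 0, 97 and 0 in daf-2. The log2 difference was 3.09 ± 0.75 (SE, n = 3 each), higher in 3 of 3 libraries, with a limma adjusted p of 0.717. The lid gene rpn-5 (WBGene00004461, chromosome II, 4696419 to 4698427) was at 22.99, 10.52 and 11.46 FPKM in the aak(0) libraries, at 0.06, 4.49 and 0 in the daf-2 libraries, and GFP alone gave 16.1, with 352, 405 and 494 reads against 2, 182 and 0. The log2 difference of rpn-5 was 3.07 ± 0.87 (SE, n = 3 each) with a limma adjusted p of 0.717. For both genes the daf-2 zeros lay in replicates 1 and 3, the libraries that also listed 8 and 9 members at 0. With edgeR the differences were 2.58 for rpt-4 and 2.09 for rpn-5, each with an adjusted p of 1.

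In 4 of 33 members (12.1%) each aak(0) library lay above each daf-2 library in FPKM, as in 10% of all tested genes. These were pbs-5, rpt-4, rpn-5 and the scaffold gene rpn-2. Transcripts of rpn-2 (WBGene00004459, chromosome III, 6198902 to 6202594) were at 19.4, 24.5 and 25.3 FPKM in the aak(0) libraries, 16.7, 8.46 and 2.37 in the daf-2 libraries, and GFP alone gave 32.97. The log2 difference was 1.53 ± 0.71 for rpn-2 and 1.17 ± 0.60 for pbs-5 (SE, n = 3 each), with limma adjusted p of 0.717 for both. On recovered reads edgeR under TMM factors gave 0.89 for rpn-2 and 0.37 for pbs-5, and DESeq2 gave 0.66 and 0.088. In 0 members did all aak(0) libraries lie below all daf-2 libraries, which held for 0.746% of tested genes. The lowest difference, of pas-3, was -1.38 ± 1.41 (limma adjusted p = 0.760, n = 3 each) and rested on its 0 in aak(0) replicate 1.

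Where no zeros entered, the single daf-2 library with all members detected was low. All 33 members were higher in aak(0) replicate 2 than in daf-2 replicate 2, by 1.44-fold (pas-4) to 7.68-fold (rpn-6.2) with a median of 3.47-fold. In aak(0) replicate 3 all 33 were higher too, by a median of 3.23-fold. Over all tested genes above 0 in the libraries compared, the median was 2.25-fold for each pair, and 81.7% and 81.4% were higher. This sets libraries side by side, not genotypes, since daf-2 replicates 1 and 3 gave other levels. The aak(0) replicates 2 and 3 themselves had a median ratio of 0.968 over members, with 13 of 33 higher in replicate 2 (50.8% of genes above 0 in both). Against GFP, 33 members were lower in daf-2 replicate 2, 25 in aak(0) replicate 2 and 24 in aak(0) replicate 3, while over genes these shares were 89.0%, 74.0% and 78.5%.

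Compared with GFP alone, no proteasome gene passed a test for higher recovery with HZL-1. In aak(0) 0 of 33 members passed with limma, against 1.07% of tested genes called, and 0 had an unadjusted p under 0.05 (1.94% of tested genes). Of the 103 tested genes called, 2 were higher and 101 lower than GFP. Without a variance trend 0 of the tested genes were called. The adjusted p of members lay between 0.960 and 1. The median difference from GFP was -0.84 on the log2 scale over members and -0.79 over all tested genes. It was above 0 for pbs-1, pbs-2, pbs-5 and rpn-13, with pbs-5 highest at 0.52 ± 0.84 (SE, adjusted p = 0.960 with limma). In 17 of 33 members (51.5%) all 3 aak(0) libraries lay below GFP, as in 50.3% of tested genes, and in 0 members did all 3 lie above it. After quantile normalization the difference was above 0 for 10 members (30.3%) and for 51.1% of tested genes, where it had been 12.1% and 20.5%.

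In daf-2 all 33 members were on average below GFP, where 0 passed with limma (1.07% of tested genes called) and 3 had an unadjusted p under 0.05 (7.54% of tested genes). All 103 tested genes called were lower than GFP, and without a variance trend 0 were called. The median difference was -1.81 on the log2 scale over members and -1.28 over all tested genes, and -1.16 for the core and -2.0 for the regulatory particle. The members at an unadjusted p under 0.05 were rpt-4 at -3.37 ± 1.06, rpn-5 at -3.25 ± 1.23 and rpn-6.2 at -2.84 ± 1.00 (SE), each with a limma adjusted p of 0.599. All 3 daf-2 libraries lay below GFP for 28 of 33 members (84.8%) and for 57.6% of tested genes, and all 6 HZL-1 libraries did so for 14 members (42.4%) and 35.0% of genes. After quantile normalization 8 of the 33 (24.2%) were on average above GFP, as were 53.7% of tested genes, against 13.5% of genes without it. Without aak(0) replicate 1, which enters through the shared estimate of spread, 7 members (21.2%) had an unadjusted p under 0.05, beside 23.5% of tested genes, and 0 passed where 433 of all tested genes did. Both contrasts use the same GFP library, assume that it varies like the replicated groups, and rest on a library whose aak-2 level goes against its label.

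With the endogenous promoter every member had reads in both libraries, and most were recovered less in the library labelled aak(0). Gene reads totalled 24035823 in that library and 58132094 in the one labelled daf-2. Members together had 19205 reads (799 CPM) and 92963 reads (1599 CPM). Protein-coding genes received 15923668 and 16012184 reads, of which the members took 0.121% and 0.581%. A single gene, the predicted arginine kinase argk-1, held 56.3% of the coding reads labelled aak(0), or 8965110 reads, and 2 reads in the other library. Without argk-1 the members' share of coding reads was 0.276% in the library labelled aak(0), against 0.581% in the one labelled daf-2. The core took 0.0607% and 0.145% of these reads, and the regulatory particle 0.215% and 0.435%.

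With 1 library per genotype there is no replicate check, and intervals cover counting error only. On the log2(CPM + 1) scale the median over members was -1.02, with 27 of 33 lower in the library labelled aak(0). The median over all 18987 genes with a mean of at least 1 CPM was 1.92, and 32 of 33 members lay below it. Over the 15266 protein-coding genes among these the median was 1.33. Over 2-fold lower were 17 of 33 members (51.5%), against 15.1% of all genes, and over 2-fold higher were 2 (6.06%), against 59.2% of all genes. The 17 were 7 of 14 core and 10 of 19 regulatory genes. With CPM taken over protein-coding reads, 32 of 33 members were lower and 27 by over 2-fold, where 30.2% of all genes were.

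**Figure D5:**
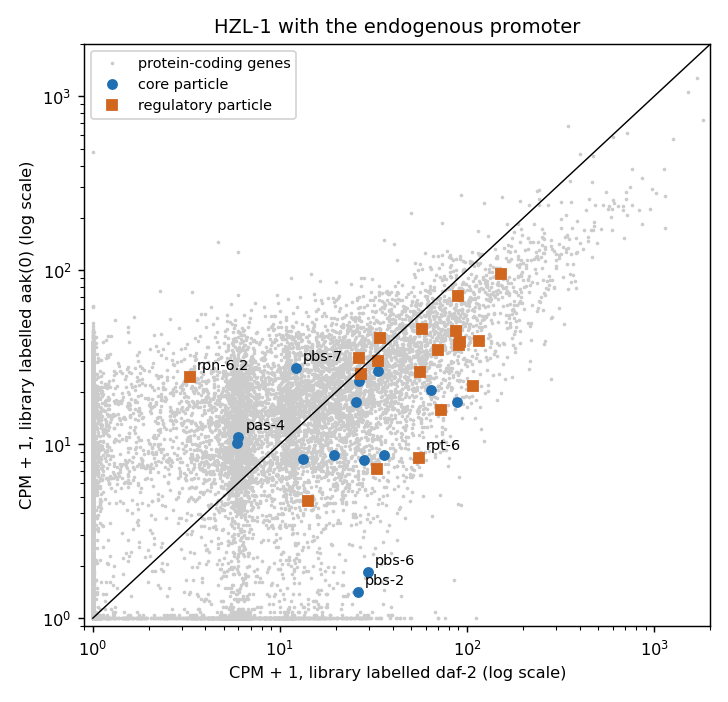
CPM + 1 of protein-coding genes (grey) and of core (circles) and regulatory particle genes (squares) in the library labelled aak(0) against the library labelled daf-2, both on log scales with a line of equal CPM. Most members lie below the line, with pbs-2 and pbs-6 lowest and rpn-6.2 far above it, and genes beyond the axes, such as argk-1, are not drawn.

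The libraries of this pair differed in breadth. Reads that named no gene were 62.1% of the reads labelled aak(0) and 29.6% of those labelled daf-2, and ribosomal RNA took 29.5% and 70.1% of gene reads. Per kilobase of gene span, introns included, the median protein-coding gene had 78.9 reads in the library labelled aak(0) and 0.164 in the one labelled daf-2. Members had 9.39 to 644 reads per kilobase, around a median of 361, in the library labelled aak(0), and 62.0 to 4645, around 1453, in the one labelled daf-2. Among genes with a mean of at least 20 CPM, the median over all 3325 genes was -0.36 and over the 22 members that passed -0.99. There 11 of the 22 were over 2-fold lower, against 26.6% of genes. That mean was taken over the 2 libraries compared, so a gene could pass through 1 of them alone. Of the members over 2-fold lower, pas-3, pbs-1, pbs-5, rpt-6 and rpn-6.1 were under 20 CPM in the library labelled aak(0). The share is therefore not independent of the ratio. The part of breadth in the members' ratios was not tested. Germline markers also had lower sums, 424 CPM in the library labelled aak(0) and 1055 CPM in the one labelled daf-2, with reads for 9 and 10 of 10. Lower sums were not particular to them: pharynx had 433 and 887 CPM, neurons 510 and 1021, body wall muscle 593 and 888, and dauer markers 1054 and 1347. Sums went the other way for intestine (246 and 219 CPM), hypodermis (237 and 102) and sperm markers (60.2 and 9.00).

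The lowest ratios belonged to the beta ring genes pbs-2 and pbs-6 and the ATPase gene rpt-6. Transcripts of pbs-2 had 10 reads in the library labelled aak(0) and 1460 in the one labelled daf-2 (0.416 and 25.1 CPM), which is 60.4-fold lower with an exact 95% binomial interval of 32.7 to 126. Those of pbs-6 had 20 and 1659 reads (0.832 and 28.5 CPM), 34.3-fold lower with an interval of 22.1 to 56.3. These genes thus nearly dropped out of 1 library, whereas rpt-6 was at 7.36 and 54.2 CPM, 7.36-fold lower with an interval of 6.33 to 8.62. Their log2 ratios, -4.205, -4.01 and -2.72, were -5.82, -5.54 and -4.03 over protein-coding reads. In the intestinal set pbs-2 was at 17.3, 8.31 and 8.25 FPKM in the aak(0) libraries and 8.57, 5.49 and 0.25 in daf-2, and pbs-6 at 0, 18.0 and 12.3 against 0, 4.49 and 6.93.

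At the other end, rpn-6.2 had 563 reads in the library labelled aak(0) and 133 in the one labelled daf-2 (23.4 and 2.29 CPM), 10.2-fold higher with an exact 95% interval of 8.46 to 12.5, and its log2 ratio of 2.89 was 1.97 over protein-coding reads. The paralog rpn-6.1 went the other way, with 352 and 4141 reads (14.6 and 71.2 CPM). The sperm genes spe-9 and spe-11 had 396 and 929 reads in the library labelled aak(0), and 0 and 10 in the one labelled daf-2. Of the 5 sperm markers with a mean of at least 1 CPM, 3 were over 2-fold higher in the library labelled aak(0) and 2 over 2-fold lower, with sums of 60.2 and 9.00 CPM. Their part in the rpn-6.2 ratio was not tested. Next were pbs-7 at 26.3 and 11.1 CPM, 2.37-fold higher with an interval of 2.12 to 2.64, and pas-4 at 9.94 and 5.01 CPM, 1.99-fold higher with an interval of 1.67 to 2.36. Over protein-coding reads the log2 ratios of pbs-7 and pas-4 turned to -0.023 and -0.26. The genes rpt-4 and rpn-5, highest in the intestinal comparison, had log2 ratios of 0.25 and 0.27 here, lower than the median gene, and of -0.99 and -0.98 over protein-coding reads.

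Other genes of ubiquitin-dependent degradation were examined in 7 lists. By limma 0 genes of the 7 lists passed in any of the intestinal contrasts. Regulators and accessory genes of the proteasome had a median difference of aak(0) from daf-2 of 0.78 over 12 tested genes, 8 of them above the median of all tested genes. Among them skn-1, which encodes a transcription factor that raises proteasome gene expression when proteasome activity is impaired, was at 67.2, 38.8 and 39.8 FPKM in the aak(0) libraries, 22.6, 20.2 and 34.9 in the daf-2 libraries, and GFP alone gave 71.8. Each aak(0) library of skn-1 was above each daf-2 library, and the log2 difference was 0.87 with adjusted p = 0.717 (limma). The shuttle factor gene rad-23 was at 11.3, 16.0 and 15.4 FPKM in the aak(0) libraries and 5.00, 4.61 and 23.9 in daf-2.

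For ubiquitin, its relatives and their activating enzymes the median was 1.04 over 10 tested genes. The ubiquitin fusion gene ubq-2 was at 105, 96.5 and 85.6 FPKM in the aak(0) libraries, 0, 67.8 and 164 in the daf-2 libraries, and GFP alone gave 47.7, and ubl-1 at 28.9, 60.6 and 49.3 against 0.32, 47.66 and 44.96. Genes of the CDC-48 complex, a segregase that extracts ubiquitylated proteins, had a median of 1.05 over 13 tested genes. Its ATPase gene cdc-48.1 was at 27.5, 23.8 and 26.8 FPKM in the aak(0) libraries, 11.61, 8.6 and 13.84 in the daf-2 libraries, and GFP alone gave 37.0, so the genotypes did not overlap, with a limma adjusted p of 0.717. The complex member ufd-3 was at 6.87, 19.2 and 18.8 against 12.4, 3.27 and 1.16.

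Medians were 0.32 for 18 E2 enzymes, 0.73 for 16 genes of cullin ligases, 0.69 for 18 deubiquitinases and 0.06 for 6 genes of the COP9 signalosome, beside 0.59 over all tested genes. The E2 genes let-70 and ubc-1 were at 41.2, 78.9 and 68.5 FPKM and at 49.8, 17.3 and 20.9 in the aak(0) libraries, against 43.4, 45.1 and 152 and 4.85, 37.1 and 79.5 in daf-2. The ligase adaptor gene skr-1 was at 28.1, 30.8 and 28.9 FPKM in the aak(0) libraries and at 45.5, 21.7 and 52.3 in the daf-2 libraries, and cul-3 at 6.68, 20.8 and 17.5 against 25.2, 6.08 and 2.68. Of the deubiquitinases, cyld-1 was at 16.4, 25.0 and 20.8 against 21.2, 7.27 and 13.3, and math-33 at 9.98, 21.47 and 20.02 against 12.2, 4.98 and 5.78. The signalosome genes csn-6 and csn-4 were at 0, 6.96 and 5.99 and at 0, 8.08 and 5.65 in the aak(0) libraries, against 12.58, 2.17 and 4.1 and 9.14, 1.54 and 3.79. The genotypes overlapped for each of these 8 genes. All 6 signalosome genes were listed at 0 in aak(0) replicate 1.

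With the endogenous promoter the median log2 ratio was -0.91 for proteasome regulators, -0.40 for ubiquitin genes, -1.23 for the CDC-48 complex and -1.08 for E2 enzymes. It was -0.03 for cullin ligases, -0.08 for deubiquitinases and -0.24 for the signalosome. The gene cdc-48.1 was at 65.1 CPM in the library labelled aak(0) and 244 CPM in the one labelled daf-2, and let-70 at 90.6 and 324 CPM.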

How the data were processed

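RNA from anti-GFP immunoprecipitates of 9 dauer samples was sequenced after selection for polyadenylated molecules, per the labels' protocols. The submitters' processing notes name Trimmomatic 0.35, STAR 2.7.1a, RSEM, DESeq2 1.30.1 and build WBcel235, without settings. The authors deposited FPKM for the 7 intestinal libraries. A further table of the authors held a normalized signal for the 6 HZL-1 libraries, 100% of whose values were whole multiples of the smallest value of their library (tolerance 0.01), so whole reads were recovered. The authors' own comparison stands there too, as log2 fold changes with p-values. The authors deposited raw counts for the endogenous pair, in which rows naming no gene were left out of library sizes. For strand in counting, the labels and headers say nothing.

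limma 3.58.1 (R 4.3.3, variance trend) was fitted to log2(FPKM + 1) of all 7 libraries for the 9649 genes averaging 1 FPKM or more, with 1 mean per group, 4 residual degrees of freedom and Benjamini-Hochberg adjustment over all of them. These fold changes understate low genes. edgeR 4.0.16 and DESeq2 1.42.0 were run on the recovered reads. The limma, edgeR and DESeq2 fits were also run on simulated data. No simulated library was set apart by zeros, so that check does not cover the libraries that stood apart here. Nothing says that replicates are separate cultures, and p-values then reflect only how these samples vary, which can be technical.

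The members and lists were chosen with earlier results of these data known. Members named were, per family, the 2 with the highest and the 1 with the lowest mean FPKM, those with an unadjusted limma p under 0.05 or without overlap of genotypes, the rpn-6 paralogs, and the 3 highest and 3 lowest endogenous ratios. rpn-10 and rpn-11 were added after their values were seen. Of each pathway list the 2 genes with the highest mean were named. Alternatives covered pseudocounts, filters, scalings, omitted libraries and count-based tests.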

Additional observations from a re-analysis of the deposited data

Results flagged for a closer look

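The genes pbs-5 and rpn-2 went opposite ways under the 2 promoters. By mean difference 22 of 33 members were higher in intestinal aak(0) and lower in the endogenous library labelled aak(0), and 1, pbs-7, went the other way. Of these 23 only pbs-5 and rpn-2 had intestinal libraries without overlap in FPKM. Taken singly, 27 of 33 members were higher in intestinal aak(0) and 27 of 33 lower in the endogenous library labelled aak(0). The share over all genes is not given, so the 22 is not read as a result about the members. With the intestinal promoter each aak(0) library lay above each daf-2 library, by 1.17 for pbs-5 and 1.53 for rpn-2 on the log2(FPKM + 1) scale. With the endogenous promoter the library labelled aak(0) was lower than the one labelled daf-2, by -2.06 for pbs-5 (7.61 against 34.9 CPM) and by -0.33 for rpn-2 (70.1 against 88.4 CPM) on the log2(CPM + 1) scale. The difference between promoters was not tested, since the endogenous set has 1 library per genotype, those libraries went against their labels, and the tables were made separately. Groups held 3 or fewer libraries, so none was examined for single outlying samples.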

How the results depend on the processing

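The count of 0 members called stayed at 0 in all intestinal contrasts under each alternative, every omitted library included (0 to 0). Omitting the 3 libraries with most zeros left aak(0) replicates 2 and 3 against daf-2 replicate 2 alone. The median log2 difference of aak(0) from daf-2 was then 1.52 over members and 0.87 over all tested genes. This sets libraries side by side, not genotypes, since 1 daf-2 library shows no spread. The members' median minus that of all genes, for aak(0) over daf-2, was 0.29 over 9649 genes. It kept its sign with each library omitted (0.17 to 0.52). It turned to -1.08 with DESeq2 (22887 genes) and to -1.25 with edgeR without a filter (24419 genes). The members' median alone stayed above 0 there, at 0.27 and 0.46, beside 1.35 and 1.70 over all genes. The difference of medians was 0.29 with filtered edgeR under both kinds of factors (9328 genes), and 0.66 with limma without a filter (21264 genes). Over GFP in aak(0) it was -0.046, turned to 0.56 with a pseudocount of 0.1 FPKM, 0.079 as TPM and 0.093 without the 3 libraries with most zeros, and ran from -0.046 to 0.093 with single libraries omitted (0.093 without aak(0) replicate 1, 0.051 without aak(0) replicate 3). For daf-2 over GFP it was -0.53, turned to 0.21 with a pseudocount of 0.1 FPKM, was -1.15 without a filter, and ran from -0.53 to -0.048 (without daf-2 replicate 3). The cause of these turns was not tested.

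For the endogenous pair this quantity was -2.94, taken against all genes, noncoding ones included. The median was 1.92 over all genes and 1.33 over protein-coding genes, and 1.48 and 0.25 with CPM over coding reads. The members' median minus that of all genes was -3.77 with CPM over coding reads and -3.37 with median-of-ratios scaling. It was -3.66 and -1.32 with pseudocounts of 0.1 and 10 CPM, -2.45 without a filter and -1.76 at a minimum of 5 CPM. It was -3.48 without argk-1 and -0.63 at a minimum of 20 CPM, both chosen after seeing the data. The members' median itself moved from -1.02 to -2.29 over coding reads, -1.24 with median-of-ratios scaling and -0.76 with a pseudocount of 10 CPM. Over coding reads pas-4 and pbs-7 turned to -0.26 and -0.023.

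Replicate numbers did not pair the samples (same-numbered deviations correlated at -0.11, -0.05 and -0.10), and with a replicate block 0 members were called and the difference in medians was again 0.29.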
